A study of Mus musculus with 2 samples.

Results

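The organic ion and bile acid uptake carriers are membrane proteins that bring bile acids, bilirubin conjugates, steroid sulfates, prostaglandins, thyroid hormones, carnitine and many drugs into cells. Their genes were taken here from 3 families of solute carriers, the organic anion transporting polypeptides (Slco), the organic cation, carnitine and organic anion transporters (Slc22a) and the sodium and bile acid cotransporters (Slc10a). Every protein-coding gene of the deposited tables with a symbol of those families was a member, apart from Slc22a18, which was left out by the rule. This gave 45 members, of which 14 were Slco, 24 Slc22a and 7 Slc10a genes, among 43346 Ensembl genes and 21474 protein-coding genes. The rule reads gene names and biotypes.

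The RNA came from the liver of B6NCrl mouse embryos at embryonic day 16.5. There was 1 group of 2 libraries, each from a pool of male and female embryos, with no treatment, no altered allele and no control group. The replicate 2 pool held 41 embryos, and the labels give no number for replicate 1. Both libraries carry the same donor identifier, and each was made from 10 ng of RNA longer than 200 nt with added spike-ins. A pool hides differences between embryos and between the sexes. No p-value is given, because there is nothing to compare beyond 2 libraries of 1 group, and each SD below is the spread of those 2 libraries, which may be technical. The level of a gene is given as TPM, the share of all transcripts corrected for their length.

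In the adult liver, blood reaches hepatocytes across their sinusoidal membrane, where these carriers take up bile acids and organic ions. Export pumps of the ABC family at the canalicular membrane then move the products into bile. Slc10a1 uses the sodium gradient to take up conjugated bile acids, while Slco carriers exchange organic anions without sodium. Most Slc22a carriers are known from the kidney and liver, where they take up drugs and metabolites of either charge. The liver of a fetus at this age is also the site of blood formation, and holds many blood cell precursors beside hepatocytes.

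The libraries held 44477766 expected counts in replicate 1 and 48820712 in replicate 2. Members took 10751 and 13254 of these, or 0.0242% and 0.0271%, so the low members rest on a handful of reads. Markers of the labelled tissue were present, and all 6 hepatocyte markers (Afp, Alb, Apoa1, Ttr, Serpina1a and Fgb) stood between 699.55 and 13667 TPM. The 6 erythroid markers summed to 142639 and 139790 TPM, against 29199 and 31172 TPM for the hepatocyte markers. Marker sums of other liver cells were 313.71 and 338.29 TPM for macrophages, 69.86 and 73.25 TPM for endothelial cells and 136.63 and 169.76 TPM for stellate cells, each over 6 genes. In bulk RNA, fewer cells of a type and less RNA per cell cannot be told apart.

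Few of the uptake carriers were transcribed at an appreciable level. Of the 45 members, 13 (28.9%) reached 1 TPM in both libraries, against 35 of 50 ABC transporter genes (70%), 192 of 340 other Slc genes (56.5%) and 52.2% of all protein-coding genes. At 10 TPM the share was 4.44% of members (2 genes), against 34% of ABC genes, 26.5% of other Slc genes and 26.4% of protein-coding genes. No member reached 100 TPM, a level reached by 4% of ABC genes and 3.98% of protein-coding genes. The median member stood at 0.035 TPM, the median ABC gene at 6.28 TPM and the median protein-coding gene at 1.49 TPM. These shares describe the sets, and no test of their difference was made.

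**Figure D1:**
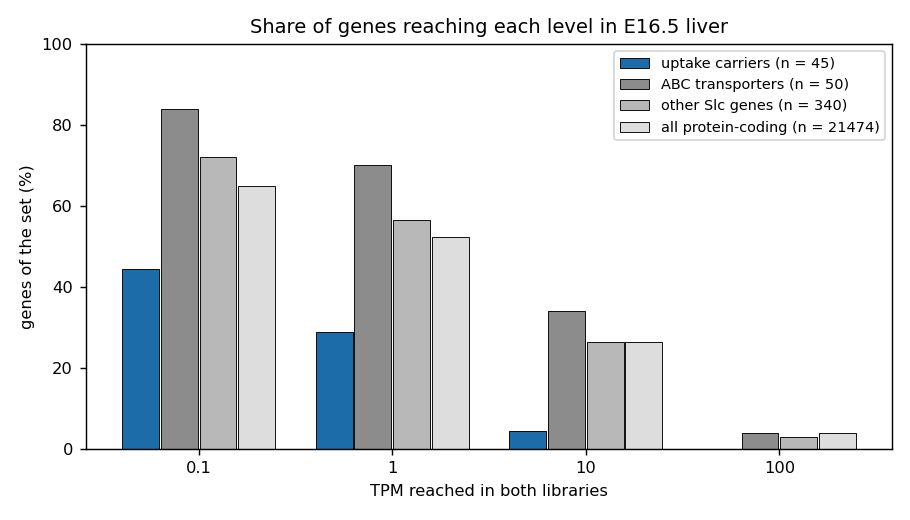
Percent of genes (vertical axis) at or above 0.1, 1, 10 and 100 TPM in both libraries (horizontal axis), for the uptake carriers, ABC transporters, other Slc genes and all protein-coding genes. The bar of the uptake carriers is the shortest at every level, from 44.4% at 0.1 TPM to 4.44% at 10 TPM and none at 100 TPM.

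Below the 13 members at 1 TPM, 7 stood at 0.1 TPM or more in both libraries, 16 had some counts but less than 0.1 TPM in both, and 9 had no count in either library. In all, 19 members had no more than 3 expected counts in each library. Summed over members, the level was 104.15 TPM in replicate 1 and 114.63 TPM in replicate 2 (109 ± 7.41, SD, n = 2). The single highest member held 30.0 ± 4.76% of that sum, the first 2 held 56.1 ± 0.267% and the first 3 held 65.7 ± 1.19% (SD, n = 2). The first 3 were Slc22a4, Slc10a1 and Slco2a1, one gene from each family.

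**Figure D2:**
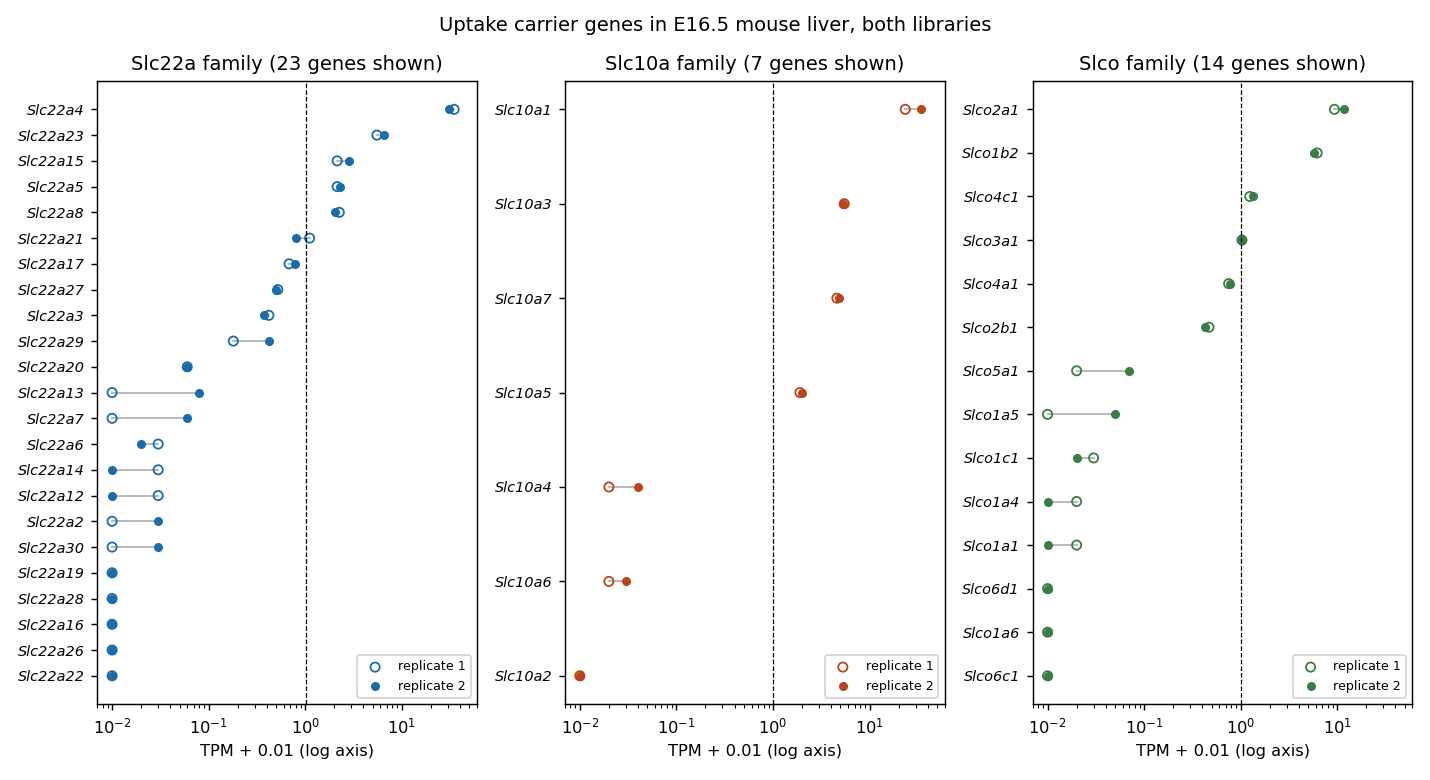
TPM plus 0.01 on a log axis for 44 of the 45 members, by family, with replicate 1 as open and replicate 2 as filled circles and 1 TPM as a dashed line. Each family has 1 gene above the rest (Slc22a4, Slc10a1, Slco2a1) and a tail at or near 0, and the 13 members right of the line in both libraries run from 1.02 to 34.79 TPM.

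By family, 5 of 24 Slc22a genes (20.8%), 4 of 7 Slc10a genes (57.1%) and 4 of 14 Slco genes (28.6%) reached 1 TPM in both libraries. Summed levels were 48.6 ± 1.70 TPM for Slc22a, 40.8 ± 7.62 TPM for Slc10a and 20.1 ± 1.48 TPM for Slco (SD, n = 2). Slc22a and Slc10a stood at 49.78 and 35.37 TPM in replicate 1 and at 47.38 and 46.15 TPM in replicate 2, so their order rests mainly on replicate 1. With only transcripts annotated as protein coding, the order of the means turned, with 36.5 TPM for Slc22a and 40.8 TPM for Slc10a. That turn came from replicate 2, and in replicate 1 the coding sum of Slc22a stayed above that of Slc10a.

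Among the sodium-coupled bile acid carriers, Slc10a1, the main route by which hepatocytes reclaim conjugated bile acids from blood, stood at 23.42 TPM in replicate 1 and 33.93 TPM in replicate 2 (28.7 ± 7.43, SD, n = 2; 1553 and 2431 expected counts). It lies at chr12:80953183-80968705 on the minus strand (GRCm38). Of all protein-coding genes, 86.7% had a lower mean level. Slc10a2, which takes up bile acids in the ileum and kidney, had no count in either library, where 3 counts would have been 0.0466 and 0.0431 TPM. Of these bile acid carriers, counts were found for the hepatic one alone at this depth.

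The other Slc10a genes are not known as main carriers of bile acids. Slc10a3, whose substrate is not established, stood at 5.46 and 5.32 TPM. Slc10a7, known for a part in cellular calcium and in protein glycosylation of bone and cartilage, stood at 4.58 and 4.85 TPM. Slc10a5, another member without an established substrate, stood at 1.89 and 2.00 TPM. For each of these 3 the deposited TPM intervals of the libraries overlapped. Slc10a4, a protein of synaptic vesicles, and Slc10a6, a carrier of steroid sulfates, stayed at or under 0.03 TPM.

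Among the Slco carriers of organic anions, Slco2a1, the prostaglandin transporter, led with 9.32 TPM in replicate 1 and 11.76 TPM in replicate 2 (10.5 ± 1.73, SD, n = 2). Slco1b2, the mouse counterpart of the human hepatocyte carriers OATP1B1 and OATP1B3 for bilirubin conjugates, bile acids and statins, stood at 6.18 and 5.70 TPM (5.94 ± 0.339, SD, n = 2). These were the only Slco genes above 5 TPM. Slco4c1, known in the kidney as a carrier of digoxin and thyroid hormone, stood at 1.23 and 1.33 TPM. Slco3a1, a widely expressed carrier that in human takes up prostaglandins and thyroxine, was at 1.02 TPM in both libraries, just inside the threshold. The next Slco gene, just outside it, was Slco4a1 with 0.74 and 0.76 TPM.

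The Slco1a carriers of the adult mouse liver were near 0. Slco1a1 had 1 expected count in replicate 1 and none in replicate 2, and so did Slco1a4, although both are abundant uptake carriers of adult mouse hepatocytes. Slco1a5 had no count in replicate 1 and stood at 0.04 TPM in replicate 2, and Slco1a6 had none in either library. Slco2b1, a carrier of steroid sulfates also found in adult liver, stood at 0.46 and 0.42 TPM. Slco1c1, the thyroxine carrier of brain vessels, stood at 0.02 and 0.01 TPM. Slco6c1 and Slco6d1, known from the testis, had no count, and Slco5a1 stayed at or under 0.06 TPM.

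Among the Slc22a genes, Slc22a4, a carrier of the fungal antioxidant ergothioneine also called OCTN1, had the highest mean level of all 45 members. It stood at 34.79 TPM in replicate 1 and 30.57 TPM in replicate 2 (32.7 ± 2.98, SD, n = 2; 2452 and 2411 expected counts), above 88.1% of protein-coding genes. It lies at chr11:53983123-54028090 on the minus strand. Its order against Slc10a1 turned between the libraries, with Slc22a4 at 1.49 times the level of Slc10a1 in replicate 1 and 0.901 times in replicate 2.

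Slc22a5, the high-affinity carnitine transporter OCTN2, lies in the same group of genes as Slc22a4 and stood far below it, at 2.13 and 2.28 TPM. The ratio of Slc22a4 to Slc22a5 was 14.9 ± 2.07 (SD, n = 2). Slc22a21, another gene of that group, which carries carnitine in mouse, stood at 1.10 TPM in replicate 1 and 0.80 TPM in replicate 2, and was the single member to pass 1 TPM in one library alone. Slc22a5 and Slc22a21 shared 12.9% and 10.6% of their 100-nt windows, and their expected counts were not whole numbers, while their sum was (348 and 364 counts). How the reads were split between them was not tested.

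Of the carriers for organic cations, Slc22a2 (OCT2), known from the kidney, had no count in replicate 1 and stood at 0.02 TPM in replicate 2. Slc22a3 (OCT3), found in placenta, brain and other tissues, stood at 0.41 and 0.36 TPM on 59 and 56 expected counts. In GENCODE M21 its exons overlap by 420 nt with those of Plg on the opposite strand, a gene with 46469 and 58190 expected counts, but no 100-nt window of its tabled transcripts occurs in Plg. Slc22a16, a carnitine carrier of testis, had no count in either library, and of 6 testis germ cell markers none reached 1 TPM and Prm1, Prm2 and Tnp1 had no count.

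Of the carriers for organic anions, Slc22a8 (OAT3), best known from the basolateral membrane of kidney proximal tubule and from choroid plexus, stood at 2.24 TPM in replicate 1 and 2.02 TPM in replicate 2 (319 and 311 expected counts). Slc22a6 (OAT1), its neighbour and partner in kidney, had 3 and 1 expected counts. The 7 kidney tubule markers summed to 0.74 and 0.71 TPM, with Slc5a2 highest at 0.57 and 0.54 TPM and no count for Umod, Kap and Slc5a12. Of 6 choroid plexus and brain markers, 3 reached 1 TPM (Ttr, Slc2a1 and Aqp1), which hepatocytes or red cell precursors also make. The others were Folr1 with 0.56 and 1.00 TPM, Kl with 0.10 and 0.07 TPM, and Kcne2 with no count. The part of such cells in the level of Slc22a8 was not tested.

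Slc22a7 (OAT2), an anion carrier of adult liver and kidney, had no count in replicate 1 and 4 expected counts in replicate 2. Slc22a12, the urate carrier of kidney, stood at 0.02 TPM in replicate 1 and had no count in replicate 2. Slc22a19, Slc22a26 and Slc22a28, rodent genes of the anion carrier group, and Slc22a22, a prostaglandin carrier of mouse kidney, had no count in either library. For the 9 members without a count, 3 counts would have been between 0.0271 and 0.0616 TPM, so lower levels were not detectable at this depth.

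Among the less studied members, Slc22a23, a carrier without a settled substrate, stood at 5.51 and 6.59 TPM, the second highest Slc22a gene. Slc22a15, which in human carries ergothioneine and other zwitterions, stood at 2.13 and 2.85 TPM. Slc22a17, described as a receptor for lipocalin 2, stood at 0.67 and 0.78 TPM.

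Taken by site of action in the adult, 3 of 8 carriers of the hepatocyte sinusoidal membrane reached 1 TPM in both libraries, namely Slc10a1, Slco1b2 and Slc22a5. Slco2b1 lay between, and Slco1a1, Slco1a4 and Slc22a7 stayed under 0.1 TPM. The 8 genes summed to 37.3 ± 7.19 TPM (SD, n = 2). Of 5 counterparts known from intestine or kidney (Slc10a2, Slc22a2, Slc22a6, Slc22a8 and Slc22a12), only Slc22a8 reached 1 TPM, and their sum was 2.17 ± 0.163 TPM (SD, n = 2). Within the 13 members at 1 TPM or more, 8 of 12 neighbouring pairs in the order of levels had library ranges that did not overlap. The 4 pairs that overlapped were Slc22a4 and Slc10a1, Slc22a23 and Slco1b2, Slc22a15 and Slc22a5, and Slc22a5 and Slc22a8. A range here spans only the values of the 2 libraries, so the other pairs are not all resolved. Deposited TPM intervals overlapped in replicate 1 for Slco1b2 and Slc10a3, Slc22a8 and Slc10a5, and Slco4c1 and Slco3a1. In replicate 2 those of Slc10a3 and Slc10a7 overlapped too.

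The bases before the start of transcription were compared between the members at 1 TPM or more and the others. RefSeq promoter windows (GRCm38.p6) matched 38 of 45 members, 10 of them among the 13 at 1 TPM or more, and the 250 bases before the start were used. Slc22a4 and Slc10a1 are shown as the highest members and Slco1b2 as a hepatic carrier with no CG. Slco1a1 is shown as a near-silent Slco1 gene of the same chromosome. Capitals mark the dinucleotide CG and the letters TATAAA, searched on both strands and at any position in the window. A match of these letters is not called a TATA box here, because its position was not considered.
Slc22a4 (minus strand, chr11:54028105-54028354): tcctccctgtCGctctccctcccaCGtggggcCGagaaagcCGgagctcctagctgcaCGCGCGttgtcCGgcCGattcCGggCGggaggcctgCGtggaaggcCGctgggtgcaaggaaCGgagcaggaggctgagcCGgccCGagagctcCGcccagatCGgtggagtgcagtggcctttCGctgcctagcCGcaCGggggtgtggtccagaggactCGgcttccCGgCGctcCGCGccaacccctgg
Slc10a1 (minus strand, chr12:80968080-80968329): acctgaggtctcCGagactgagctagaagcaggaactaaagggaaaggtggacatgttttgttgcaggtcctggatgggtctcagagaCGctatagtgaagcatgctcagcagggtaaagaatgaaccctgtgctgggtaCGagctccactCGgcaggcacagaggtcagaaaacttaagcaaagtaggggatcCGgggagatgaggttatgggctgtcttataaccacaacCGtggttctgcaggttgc
Slco1b2 (plus strand, chr6:141629268-141629517): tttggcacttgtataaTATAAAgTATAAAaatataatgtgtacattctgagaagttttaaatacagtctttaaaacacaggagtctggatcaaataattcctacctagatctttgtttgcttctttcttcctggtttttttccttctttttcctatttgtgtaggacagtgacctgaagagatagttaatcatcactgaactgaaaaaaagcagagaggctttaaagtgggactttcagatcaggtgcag
Slco1a1 (minus strand, chr6:141946963-141947212): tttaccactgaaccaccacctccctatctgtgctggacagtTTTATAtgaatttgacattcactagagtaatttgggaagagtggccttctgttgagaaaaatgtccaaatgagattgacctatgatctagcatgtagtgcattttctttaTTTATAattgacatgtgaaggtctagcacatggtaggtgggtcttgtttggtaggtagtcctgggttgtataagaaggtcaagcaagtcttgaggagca

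Promoters rich in CG dinucleotides are common to broadly expressed genes, while many tissue-restricted genes start from CG-poor promoters. The window of Slc22a4 held 26 CG, that of Slc10a1 held 6, and those of Slco1b2 and Slco1a1 held none. Among the 10 matched members at 1 TPM or more the median was 20.5 CG (range 0 to 32), against 1.5 (range 0 to 21) among the 28 other matched members and 6 among all 32851 windows. More than 6 CG were found in 7 of those 10 (70%), against 3 of the 28 (10.7%) and 46.3% of all windows.

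Read the other way, 7 of the 10 members with more than 6 CG reached 1 TPM, against 3 of the 28 with 6 or fewer. Those 3 were Slc10a1, Slco1b2 and Slc22a8, with 6, 0 and 1 CG. Slc10a1 and Slco1b2 are the bile acid and organic anion carriers of the hepatocyte, and Slc22a8 is an organic anion carrier. The other windows with more than 6 CG belonged to Slco4a1 (21 CG, 0.74 and 0.76 TPM), Slc22a17 (8 CG) and Slc10a4 (13 CG, 0.01 and 0.03 TPM). The RefSeq starts used for Slc22a8 and Slco2a1 lie 1893 and 485 nt from the start of their leading coding transcript. Their windows thus lie away from the starts of those transcripts. Among the 28 others, this distance was 319 nt for Slco2b1 and 175158 nt for Slc22a14.

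**Figure D3:**
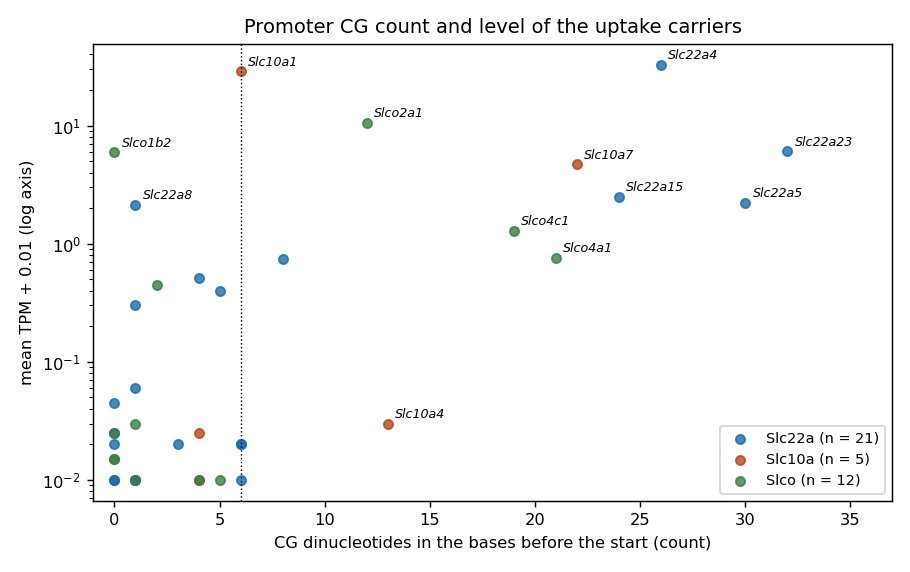
Mean TPM plus 0.01 of both libraries on a log axis (vertical) against the number of CG dinucleotides in the 250 bases before the start (horizontal), for the 38 matched members, coloured by family, with the median of all windows as a dotted line. The members right of the line are mostly above 1 TPM, and Slc10a1, Slco1b2 and Slc22a8 stand high at 6 CG or fewer.

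The letters TATAAA were found in 2 of the 10 members at 1 TPM or more (Slco2a1 and Slco1b2), in 2 of the 28 others (Slco1a5 and Slco1a1) and in 12.4% of all windows. The match of letters is a description of these windows and not a binding site.

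The level of a gene is the sum over its transcripts, coding or not. Of the 13 members at 1 TPM or more, 9 have several annotated transcripts in the tables and 4 have 1 (Slc10a1, Slc10a5, Slc10a7 and Slco4c1). For Slc22a4, the coding transcript Slc22a4-201 held 71.1% and 74.6% of the gene's TPM, at 24.75 and 22.82 TPM, and nearly all of the rest went to Slc22a4-203, a short processed transcript. The short form took 197 and 163 expected counts, against 2255 and 2246 for the coding form, so the coding form held 91.9% and 93.1% of the gene's counts. Counted by its coding transcript alone, Slc22a4 averaged 23.8 TPM and its mean fell below that of Slc10a1 at 28.7 TPM. In replicate 1 this form still stood above Slc10a1 (23.42 TPM), and in replicate 2 it stood below (33.93 TPM).

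For Slco2a1, the leading transcript differed between libraries. Slco2a1-203, annotated as a target of nonsense-mediated decay, held 50.3% of the gene's TPM in replicate 1, and the coding Slco2a1-201 held 50.3% in replicate 2. The coding form stood at 4.14 and 5.92 TPM. That of Slco1b2 stood at 5.50 and 5.70 TPM, so by coding transcripts the order of these Slco genes turned between libraries. By expected counts, which are not corrected for length, the coding form of Slco2a1 held 71.5% and 76.0% of the gene and led in both libraries. In Slc22a15 the leading form in both libraries was Slc22a15-202, a processed transcript with 79.9% and 73.4% of the gene's TPM, and coding forms reached 0.29 and 0.36 TPM. Of the 13 members, Slc22a15 was the single one whose coding transcripts fell below 1 TPM.

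For the others, coding transcripts held nearly the whole level. The coding share was 89.0% and 100% in Slco1b2, 94.9% and 97.4% in Slc22a23, and 100% and 93.0% in Slc22a5. In Slc10a3 the lead passed between 2 coding transcripts, with Slc10a3-202 at 46.2% in replicate 1 and Slc10a3-203 at 53.0% in replicate 2. Slco3a1-202 led its gene with 47.1% and 66.7%. Summed over the 13 members, coding transcripts stood at 81.88 and 93.81 TPM.

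**Figure D4:**
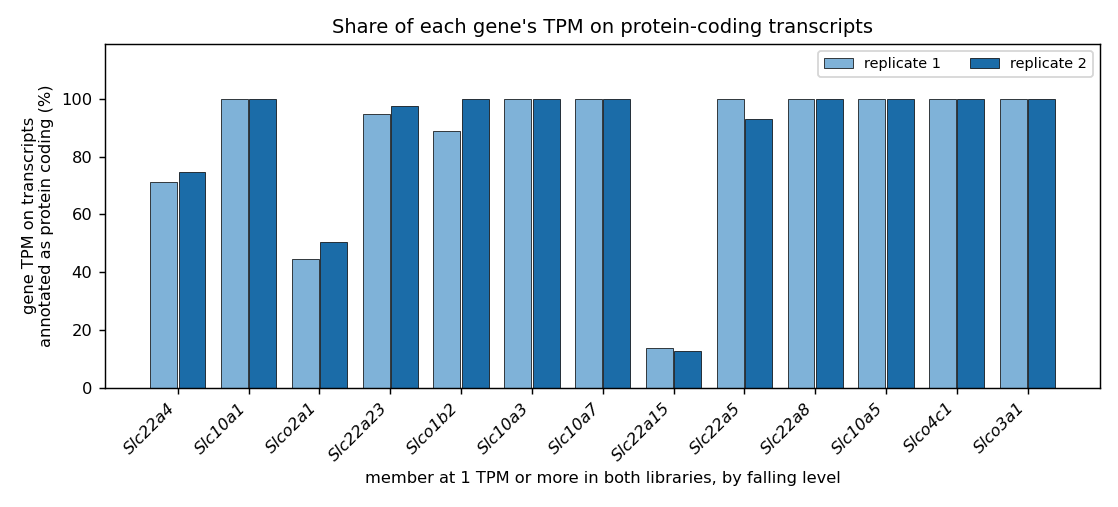
Percent of each gene's TPM on transcripts annotated as protein coding (vertical axis), in both libraries, for the 13 members at 1 TPM or more, ordered by falling level (horizontal axis). Slc22a15 lies lowest at 13.6% and 12.6%, Slco2a1 at 44.5% and 50.3% and Slc22a4 at 71.1% and 74.6%, and the other members lie at 89.0% or more.

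Many of these genes sit beside each other, copies of a common ancestor. With neighbours defined as members within 500 kb, 24 members fell into 6 groups and 21 stood alone. In the groups, 5 of 24 reached 1 TPM and 5 had no count, with a median of 0.015 TPM, against 8 of 21 at 1 TPM and 4 with no count outside them, with a median of 0.44 TPM.

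On chromosome 19, 8 Slc22a genes lie within 955 kb (chr19:7673061-8628299), and only Slc22a8 among them reached 1 TPM. Slc22a27 stood at 0.51 and 0.49 TPM and Slc22a29 at 0.17 and 0.41 TPM, while the other 5 stayed at or under 0.02 TPM. On chromosome 6, 6 Slco1 genes lie within 799 kb (chr6:141524368-142322981), and Slco1b2 held 6.18 of 6.22 TPM in replicate 1 and 5.70 of 5.75 TPM in replicate 2. On chromosome 11, Slc22a4, Slc22a5 and Slc22a21 lie within 164 kb, and 2 of them reached 1 TPM.

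**Figure D5:**
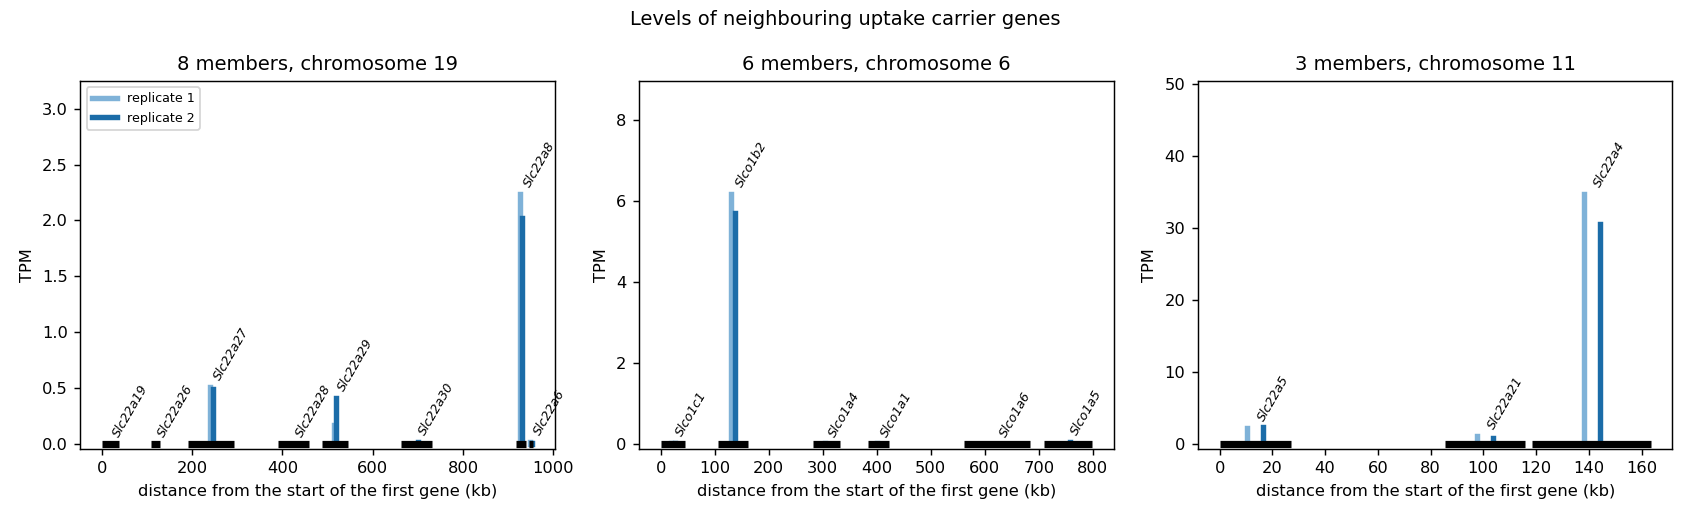
TPM in each library (vertical axis, bars at the middle of each gene) against distance from the start of the first gene in kb (horizontal axis), for the groups of 8, 6 and 3 neighbouring members on chromosomes 19, 6 and 11, with genes as black boxes. Slc22a8, Slco1b2 and Slc22a4 stand highest in them, and the vertical scales differ between groups.

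Because near copies can share reads, the whole-number property of the expected counts was checked. In 37 of 45 members the counts were whole in both libraries, and in 8 they were not (Slc10a3, Slc22a5, Slc10a5, Slc22a21, Slc22a27, Slc22a29, Slc22a13 and Slc22a30). Slc22a27, Slc22a29 and Slc22a30 summed to 58 and 69 whole counts, so reads were divided among them and their single levels are uncertain. Slc10a3 shared 7.36% of its windows with the overlapping Ubl4a. The 100-nt windows of Slc22a4, Slc10a1, Slco1b2, Slc22a23 and Slc22a8 occurred in no other gene of the annotation.

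The members were also compared between the libraries. Of 20 members whose expected counts averaged at least 10, none had a centred ratio of TPM plus 1 beyond 2-fold, against 0.597% of all genes at that count. With a share that small, 20 members are too few to be told apart from genes at large. Adding 1 TPM shrinks the ratio of low members, and Slc22a29, at 0.17 and 0.41 TPM on 15.5 and 25.9 expected counts, is one of the 20. The centred log2 ratio of TPM plus 1, replicate 2 over replicate 1, ran from -0.24 for Slc22a21 to 0.50 for Slc10a1, with a median of 0.017. The deposited TPM intervals of the libraries did not overlap for 4 of the 20 members, against 20.6% of all genes, so the members' share was near that of genes at large. Slc10a1, Slco2a1 (0.29) and Slc22a23 (0.20) were higher in replicate 2, and Slc22a4 (-0.20) was higher in replicate 1.

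Values of other genes are given beside these. Alb had a centred ratio of 0.21, Serpina1a of 0.20, Abcb11 of 0.12 and Afp of -0.02. The ratio of Slc10a1 to Alb was 0.00361 in replicate 1 and 0.00446 in replicate 2. The 6 markers of bile duct cells summed to 23.88 TPM in replicate 1 and 40.07 TPM in replicate 2, with Epcam at 0.76 and 5.75 TPM and Krt19 at 2.50 and 8.28 TPM. The 6 markers of ileum enterocytes summed to 7.88 and 16.25 TPM, with Fabp2 at 7.27 and 14.37 TPM, while Fabp6 had no count and Cdx1 and Cdx2 had counts in replicate 2 alone. Their part in the ratios of the members was not tested.

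Beside the 8 uptake carriers of the sinusoidal membrane, 3 of which reached 1 TPM, 16 genes for export of bile acids and drugs were listed. Of those 16, 9 reached 1 TPM in both libraries, with a median of 1.68 ± 0.216 TPM (SD, n = 2). That share is near the 52.2% of all protein-coding genes at this level. The highest were Abcg2 (163.04 and 156.08 TPM), an exporter of urate and porphyrins also made by red cell precursors, Abcb4 (20.47 and 20.80 TPM), which moves phosphatidylcholine into bile, and Slc47a1 (17.60 and 20.63 TPM), which expels organic cations. The lowest was Slc47a2 with 0.02 and 0.05 TPM.

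The bile salt export pump Abcb11 stood at 16.46 and 18.23 TPM, and the ratio of Slc10a1 to Abcb11 was 1.42 and 1.86 (1.64 ± 0.310, SD, n = 2). For another chosen pair the order was the opposite, as the ratio of Slco1b2 to Abcc2, the canalicular exporter of bilirubin conjugates, was 0.642 and 0.469. These pairs do not stand for bile acids or organic anions as a class. Of 15 genes for synthesis and conjugation of bile acids, 13 reached 1 TPM, against 52.2% of all protein-coding genes. Their median was 14.0 ± 2.33 TPM. Scp2 (386.35 and 400.63 TPM), Slc27a2 (128.58 and 131.82 TPM) and Hsd3b7 (64.92 and 70.70 TPM), which act in peroxisomal side-chain shortening and in sterol ring modification, were highest. Cyp46a1, the cholesterol 24-hydroxylase of brain, was lowest with 0.14 and 0.17 TPM. Cyp7a1, the rate-limiting enzyme of the classic pathway, was present at 1.29 and 1.77 TPM.

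Of 19 transcription factors known to act on hepatic carriers, 16 reached 1 TPM in both libraries, against 52.2% of all protein-coding genes. Their median was 4.59 ± 0.537 TPM. Foxa3 (54.03 and 55.94 TPM), Ppara (37.45 and 45.38 TPM) and Nfe2l2 (36.48 and 36.02 TPM) were highest, and Cebpb (0.41 and 0.53 TPM) was lowest. Hnf4a, a central factor of hepatocyte identity, stood at 16.58 and 18.47 TPM. Nr1h4, the bile acid receptor, stood at 6.52 and 7.33 TPM.

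Genes of other partners of the carriers were listed too. For comparison, 52.2% of all protein-coding genes reached 1 TPM in both libraries. All 9 carnitine genes found reached 1 TPM, with a median of 24.2 ± 4.17 TPM, led by Aldh9a1 (65.49 and 66.11 TPM), Crot (60.59 and 60.15 TPM) and Cpt2 (39.80 and 42.55 TPM), and Cpt1c was lowest with 1.39 and 1.44 TPM. Bbox1, the last enzyme of carnitine synthesis, stood at 7.48 and 7.20 TPM, above the carnitine carrier Slc22a5. Of 9 genes of the bilirubin pathway, 7 reached 1 TPM. Blvrb (726.10 and 706.32 TPM), Hmox1 (136.78 and 134.47 TPM) and Gsta3 (130.90 and 140.06 TPM) were highest, and Ugt1a1, the enzyme that conjugates bilirubin, was lowest with 0.09 and 0.18 TPM.

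The sodium gradient and scaffold genes that support Slc10a1 and Slco carriers reached 1 TPM in 7 of 9 cases, with a median of 16.7 ± 1.53 TPM. Slc9a3r1 (69.39 and 77.36 TPM), a PDZ scaffold, and Atp1b3 (54.32 and 50.10 TPM), a subunit of the sodium pump, were highest. Pdzk1, a scaffold that binds several organic ion carriers, stood at 26.50 and 29.07 TPM. As chosen lists, these sets are described by their counts and medians, and nothing particular to a list was tested.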

How the data were processed

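Total RNA longer than 200 nt from 2 libraries of E16.5 mouse liver was measured by sequencing. For each library the authors deposited gene and transcript tables, made on assembly mm10 with GENCODE M4 per the file headers and an accompanying text. Expected counts, as deposited, are estimated and can hold fractions where reads fit several transcripts. TPM as deposited sums to the same total in both libraries and counts spike-ins too. No level is stated for the deposited TPM intervals. The deposited percent of each transcript within its gene was recomputed from TPM. The columns are those of RSEM, and its version and the aligner are not given in the sources used here.

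Gene names, biotypes and coordinates (GRCm38, from 1) came from GENCODE M21, matched by ID without version. Members and gene lists were chosen with earlier results of these data known. Named genes are the members at 1 TPM or more in both libraries, the adult sinusoidal carriers, their renal and intestinal counterparts, and the 3 highest and the lowest gene of each list. Some genes that this rule selects are not reported here, and counts, sums and medians still include them. Other members and Abcb11, Abcc2, Cyp7a1, Hnf4a, Nr1h4, Bbox1, Pdzk1, and the markers singled out were named after their values were seen. A count was called whole when within 0.01 of an integer. Libraries were compared by the log2 ratio of TPM plus 1, less its median over genes averaging at least 100 expected counts. That step was tested on simulated data without the added 1 TPM. The test therefore does not cover how the added 1 TPM shrinks the ratios of low genes. Counts of 3 served as the detection floor, which covers counting error only. TMM factors (edgeR 4.0.16) and size factors (DESeq2 1.42.0, R 4.3.3), on expected counts rounded to whole numbers, served as alternatives. Other steps used python 3.11.15, numpy 2.4.6, pandas 2.3.3 and matplotlib 3.10.9.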

Additional observations from a re-analysis of the deposited data

Results flagged for a closer look

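Slc22a13b-ps, a neighbour of Slc22a13 annotated as a polymorphic pseudogene and so outside the rule for members, held 13 expected counts in replicate 1 and 6.91 in replicate 2 (0.23 and 0.11 TPM). It drew attention because counts above the limit of 3 appeared in a gene that no comparison uses. Slc22a13 itself, an organic anion carrier known from kidney, had no count in replicate 1 and stood at 0.07 TPM in replicate 2. The genes shared 21.8% of the 100-nt windows of Slc22a13, and together they held 13 whole counts in each library.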

How the results depend on the processing

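The count of 13 members at 1 TPM in both libraries became 6 at a threshold of 5 TPM, and it was 16 at 0.5 TPM, 18 as TMM-scaled CPM, 10 with members of whole counts only and 12 with coding transcripts only, a choice made after seeing the data. Leaving out each replicate gave 13 to 14. The summed level of 109 TPM became 264 as TMM-scaled CPM, which is not corrected for length, 117 rescaled over annotated nuclear genes, 167 without globin genes, 98.1 with members of whole counts only and 91.3 with coding transcripts only. Leaving out each replicate gave 104.15 to 114.63 TPM. The share of the first 3 members, 65.7%, became 54.2% as TMM-scaled CPM, where Slco2a1 (46.0 CPM) passed Slc10a1 (43.6 CPM). It was 73.3% with members of whole counts only, 63.9% with the posterior mean TPM and 63.8% with coding transcripts only. In that last setting the first 3 were Slc10a1, Slc22a4 and Slc22a23 (5.825 TPM), and Slco2a1 (5.03 TPM) was not among them. The share ran from 64.8% to 66.5% when each replicate was left out. The log2 ratio of the Slc22a sum to the Slc10a sum, 0.27, ran from 0.038 to 0.49 when each replicate was left out. As a mean of the libraries it reversed to -0.15 with coding transcripts only, though not in replicate 1 taken alone. The count of members whose ratio, with the pseudocount added, passed the fold limit was 0 under every planned setting, and 4 when intervals that do not overlap were used, a rule added after seeing the data. No paired analysis was possible because there is 1 group. Counting error limits the 19 members with 3 or fewer counts in each library, whose order is not resolved.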

Other observations

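Genes of 3 further substrates of these carriers are given as values. Of 9 genes for handling of thyroid hormone, 6 reached 1 TPM in both libraries, with a median of 6.19 ± 0.693 TPM (SD, n = 2). Ttr, the plasma carrier of thyroxine, stood at 1418 and 1579 TPM. The thyroid hormone carrier Slc16a10 stood at 36.98 and 37.30 TPM. The lowest was Dio2, a deiodinase that activates the hormone, with 0.08 and 0.09 TPM.

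Of 8 prostaglandin genes, 5 reached 1 TPM, with a median of 5.84 ± 0.170 TPM (SD, n = 2). Ptges3 (178.25 and 148.91 TPM), Hpgd (26.10 and 25.45 TPM) and Ptgs1 (18.41 and 19.67 TPM) were highest, and Ptgs2 was lowest with 0.01 and 0.17 TPM. Hpgd, the enzyme that inactivates prostaglandins after uptake, stood above the transporter Slco2a1 in both libraries. Of 6 urate genes found, 5 reached 1 TPM, with a median of 4.87 ± 0.396 TPM (SD, n = 2). Abcg2 (163.04 and 156.08 TPM), Uox (88.00 and 107.92 TPM), the enzyme that degrades urate in mouse, and Slc17a3 (5.96 and 6.78 TPM) were highest, and Slc17a1 was lowest with 0.32 and 0.14 TPM.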
